A study of Mus musculus with 2 samples.

Results

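The clustered protocadherin genes were examined in a DNase-seq map of mouse frontal cortex. The genes were taken by name from the GENCODE M21 annotation of assembly mm10, as protein-coding genes on chromosome 18 of the families Pcdha, Pcdhac, Pcdhb, Pcdhga, Pcdhgb and Pcdhgc. This gave 57 of 21938 protein-coding genes on chromosomes 1 to 19, X and Y, with 14 in the alpha cluster, 22 in the beta cluster and 21 in the gamma cluster. All are transcribed from the plus strand. In this annotation 2 neighbouring gene entries carry the name Pcdha11 and no entry is named Pcdha10, and both Pcdha11 entries were kept. Pcdhgb8 is annotated as a polymorphic pseudogene and is not a member.

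In DNase-seq the nuclease DNase I cuts DNA that is not covered by nucleosomes, so a peak of cuts marks accessible chromatin, and a footprint is a short stretch within such DNA that is protected from cutting. The 2 libraries came from frontal cortex of female B6CASTF1/J mice, first-generation offspring of B6 and CAST parents, at 10 days of age, and the labels call them biological replicates 1 and 2. They form 1 group, so no conditions were compared. The labels carry the mark "3x", and the sources used here do not say whether it means pooled animals. Replicate 1 held 104654 peaks and 293484 footprints, and replicate 2 held 81654 peaks and 187137 footprints.

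Clustered protocadherins are adhesion proteins of the neuronal surface that serve as a molecular barcode by which the branches of a neuron recognise each other. Each variable exon has its own promoter and encodes the extracellular part of a protein, and in the alpha and gamma clusters every variable exon is spliced to the same constant exons, which encode a shared cytoplasmic end. Beta genes have no constant exons. An individual neuron uses only a few of the alternate promoters, largely at random, whereas the C-type genes (Pcdhac1, Pcdhac2, Pcdhgc3, Pcdhgc4 and Pcdhgc5) are switched on more uniformly. The insulator protein CTCF and the cohesin ring join promoters to enhancers downstream, and CTCF sites that point towards each other, on opposite strands, are a known feature of this looping.

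A promoter was counted as open where the authors' list had a peak overlapping the 500 bp on either side of a protein-coding start, and its signal is that of the strongest such peak in the authors' units, with 0 where no peak was listed. How the authors scaled the signal is not given. All values were multiples of a step of 0.00521 in replicate 1 and 0.0113 in replicate 2 (100% of values within 0.05 of a step). The lowest promoter signal of an open member was 36 steps in replicate 1, at Pcdhb1, and 35 steps in replicate 2, at Pcdhb7. The sequencing depth is unknown. Positions are counted in bp from the first protein-coding start of the gene and are negative upstream of it. In bulk tissue, fewer cells with an open promoter and less opening per cell cannot be told apart.

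Few clustered protocadherin promoters were open. In replicate 1 a peak lay at 15 of the 57 starts (26.3%), against 65% of all protein-coding genes, and in replicate 2 at 7 (12.3%), against 62.2%. Most C-type genes were open: 4 of 5 were open in each library, whereas of the 52 others 11 were open in replicate 1 and 3 in replicate 2. Over both libraries, 6 members had a peak in each, against 61.8% of all protein-coding genes. A further 9 had a peak in replicate 1 only and 1 in replicate 2 only, and 41 had none. The median signal over the 57 members was therefore 0 in both libraries, against 1.30 and 1.45 over all protein-coding genes in replicates 1 and 2.

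**Figure D1:**
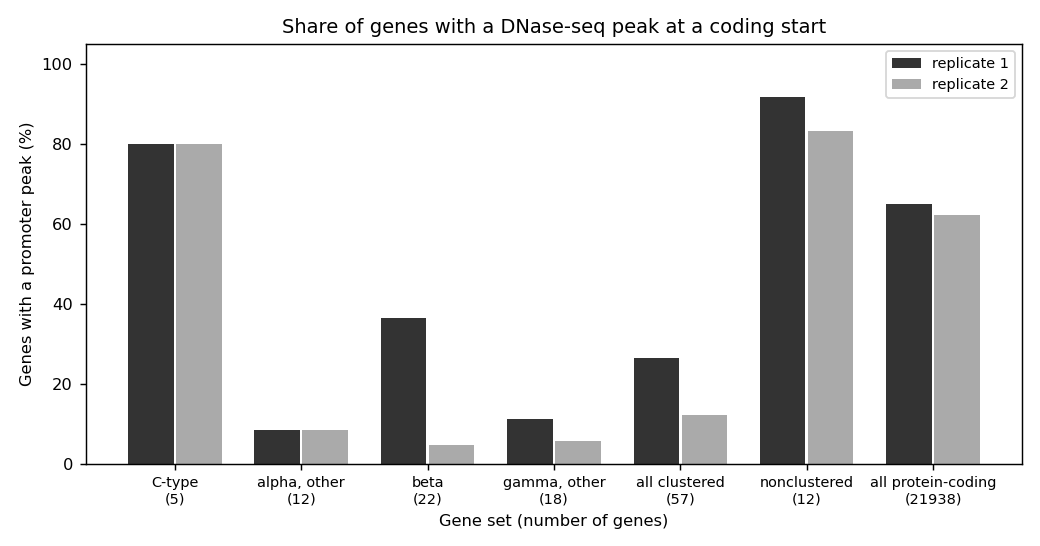
Percentage of genes in each set with a DNase-seq peak within 500 bp of a coding start, with 1 bar per replicate and the number of genes in brackets. The C-type genes stand at 80% in both replicates, all 57 clustered protocadherins at 26.3% and 12.3%, and all protein-coding genes at 65% and 62.2%.

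The low share was not seen in the other protocadherins. Of 12 nonclustered protocadherin genes, which lie outside the clusters, 11 had a peak in replicate 1 and 10 in replicate 2. The highest were Pcdh10, with signals of 7.88 and 9.81 in replicates 1 and 2, and Pcdh9, with 7.66 and 8.72, and the lowest was Pcdh12 with no peak. All 18 genes of a list of cluster regulators and binding partners were open in both libraries. Among these the cohesin subunit genes Stag1 and Smc3 were highest, with 9.39 and 9.0 in replicate 1 and 13.4 and 10.8 in replicate 2. Ret, whose product is a receptor kinase that binds protocadherins, was lowest with 0.625 and 0.609.

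In the alpha cluster the promoters open in both libraries, Pcdhac1 and Pcdhac2, were the last genes of the array. Pcdhac1 had signals of 2.36 and 2.66 in replicates 1 and 2, from a peak at identical positions in both libraries, chromosome 18 from 37089901 to 37090080, centred at -23 bp. Among open protein-coding promoters these values stood at percentiles 39.3 and 36.7. Pcdhac2 had 1.43 and 1.93, at percentiles 25.4 and 26.7. Its peak was 760 bp wide in replicate 1 and 600 bp wide in replicate 2 and ran mostly over the variable exon, with the centre 317 and 217 bp past the start. Both C-type promoters thus lay below the middle of the open promoters of the genome.

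Of the 12 alternate alpha genes, 1 was open in each library, and not the same one. Pcdha12, the alternate gene nearest to the C-type pair, had 0.323 in replicate 1 and no peak in replicate 2. Its strongest peak was centred 521 bp into the gene and 8 bp from where the noncoding Gm10545 begins, so it cannot be given to the Pcdha12 promoter alone. Pcdha5 had no peak in replicate 1 and 0.429 in replicate 2, centred 114 bp past the start. The authors' deposited cut-rate table, which lists bases whose false discovery rate is under 0.05, still included the Pcdha5 window in replicate 1, with a lowest rate of 0.0402, against 0.0296 in replicate 2. The other 10 alternate alpha entries, both Pcdha11 entries included, had neither a peak nor a listed rate in either library.

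The beta cluster held many weak peaks in a single library. In replicate 1, 8 of 22 beta promoters were open, and in replicate 2 only Pcdhb7. Signals in replicate 1 were 0.188 at Pcdhb1, 0.250 at Pcdhb3, 0.292 at Pcdhb6, 0.276 at Pcdhb7, 0.370 at Pcdhb10, 0.271 at Pcdhb11, 0.255 at Pcdhb14 and 0.401 at Pcdhb16. All 8 lay between percentiles 0.256 and 3.54 of the open promoters of that library, among the weakest in the genome. Pcdhb7, the exception, had 0.395 in replicate 2.

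The beta peaks of replicate 1 sat close to the start sites, in part because only peaks meeting the 500 bp window were counted. The centres of 7 of the 8 lay between -9 and -121 bp, 7 of the 8 windows held a footprint, and the peaks were 53 to 358 bp wide. Centres at other promoters were not compared. Over all protein-coding genes of replicate 1, 14260 had a peak and 14032 a footprint, so a footprint was nearly as common as a peak. Pcdhb1, which stands apart at the 5' end of the array, differed in that its peak was centred 164 bp past the start. The highest of the 8, at Pcdhb16, was 77 steps of the signal. Over all protein-coding genes, 483 had a replicate 1 signal in the same range, and 212 of these (43.9%) also had a peak in replicate 2. Of the 8 beta genes 1 did (12.5%). Signals were not matched within that range, so equally weak promoters were not compared. When only as many of the strongest peaks of replicate 1 were kept as replicate 2 had, 2 of the 8 beta promoters were left in replicate 1.

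In the gamma cluster, openness was limited to the 3' end. None of the 16 members before Pcdhga11 had a peak in either library, and 4 of the 5 from Pcdhga11 on were open in at least 1 library. Pcdhga11 was taken as the boundary because it is the first gamma gene with a peak, so the lack of peaks before it follows from that choice. Pcdhga11 had 0.599 in replicate 1, centred at -42 bp, and no peak in replicate 2. Pcdhga12, the last alternate gene, had 1.45 and 1.62 in replicates 1 and 2, from a peak at the same 180 bp in both, centred 350 bp past the start within the variable exon. By subfamily, 2 of 12 gamma A genes had a peak in replicate 1 and 1 in replicate 2, and none of 6 gamma B genes in either. Pcdhgb7 had no peak but was listed in the cut-rate table of replicate 1, with a lowest rate of 0.0302. The non-member Pcdhgb8, named here after its values were seen, lies between Pcdhga11 and Pcdhga12 and had 1.07 in replicate 1 and no peak in replicate 2.

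Pcdhgc3 had the strongest promoter of the 3 clusters. Its signal was 4.43 in replicate 1 and 5.0 in replicate 2, at percentiles 64.9 and 64.2 of the open promoters and above their medians of 3.15 and 3.74. The peak ran from 37806201 to 37806460 in replicate 1 and to 37806480 in replicate 2, with its centre at -80 and -70 bp. Pcdhgc4 had 1.54 and 1.73, from a peak centred 331 and 299 bp past the first coding start and 8 and 22 bp from another annotated start of the gene. Pcdhgc5 was the C-type gene without any peak, footprint or listed cut rate in either library. Its neighbour 4.4 kb upstream, Pcdhgc4, was open in both.

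**Figure D2:**
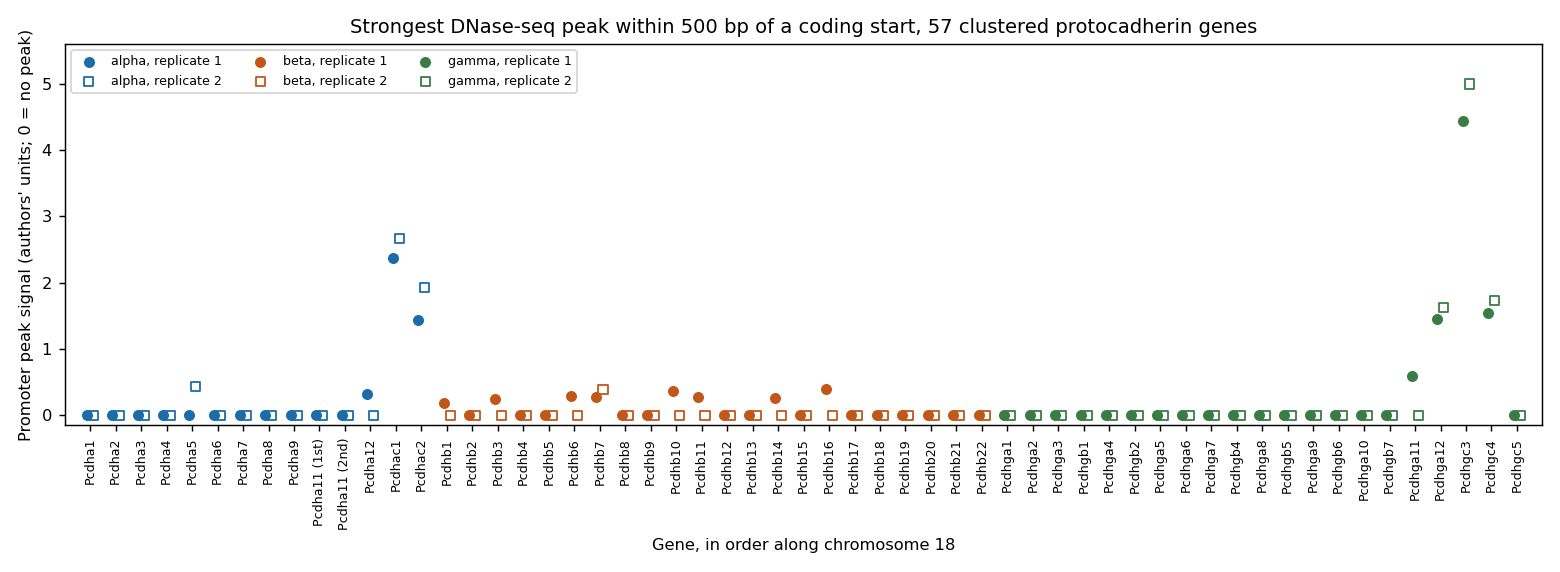
Signal of the strongest peak within 500 bp of a coding start (vertical axis, authors' units, 0 where no peak was listed) for the 57 genes in chromosomal order, with filled circles for replicate 1 and open squares for replicate 2. Values above 1 occur at Pcdhac1, Pcdhac2, Pcdhga12, Pcdhgc3 and Pcdhgc4, in both replicates, and the beta values stay at or below 0.401.

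At the 6 members open in both libraries the signals differed little, and in 1 direction. All 6 were lower in replicate 1, with a median log2 ratio of replicate 1 to replicate 2 of -0.17 (SD 0.16, n = 6). Over the 13547 protein-coding promoters open in both, the median was also -0.17 (SD 0.23), and 10908 were lower in replicate 1. The members thus showed an offset of the same size as promoters in general. The authors' shorter peak list held 4 of the 57 promoters, the same ones in both libraries: Pcdhac1, Pcdhac2, Pcdhga12 and Pcdhgc3.

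Position in the array and signal went together in the alpha and gamma clusters when the C-type genes were included. Over the 14 alpha genes, Pearson's r between order and signal was 0.62 in replicate 1 and 0.57 in replicate 2 (Spearman's rho 0.71 and 0.46), and over the 21 gamma genes it was 0.49 and 0.46 (rho 0.60 and 0.54). Over the 22 beta genes it was -0.26 and -0.15 (rho -0.27 and -0.15). Without the C-type genes, the 12 alternate alpha genes gave r = 0.48 and -0.13, and the 18 alternate gamma genes gave r = 0.51 and 0.40. Each of these alpha values rests on 1 open gene, and the gamma values rest on 2 and 1. These coefficients describe neighbouring genes that share a library, most of them tied at 0, and are not tests. The longest stretches of the region without a peak in either library ran over 165 kb from Pcdhb17 to past Pcdhb22 with 6 starts, and over 99.7 kb from Pcdhga1 to Pcdhgb7 with 16 starts.

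**Figure D3:**
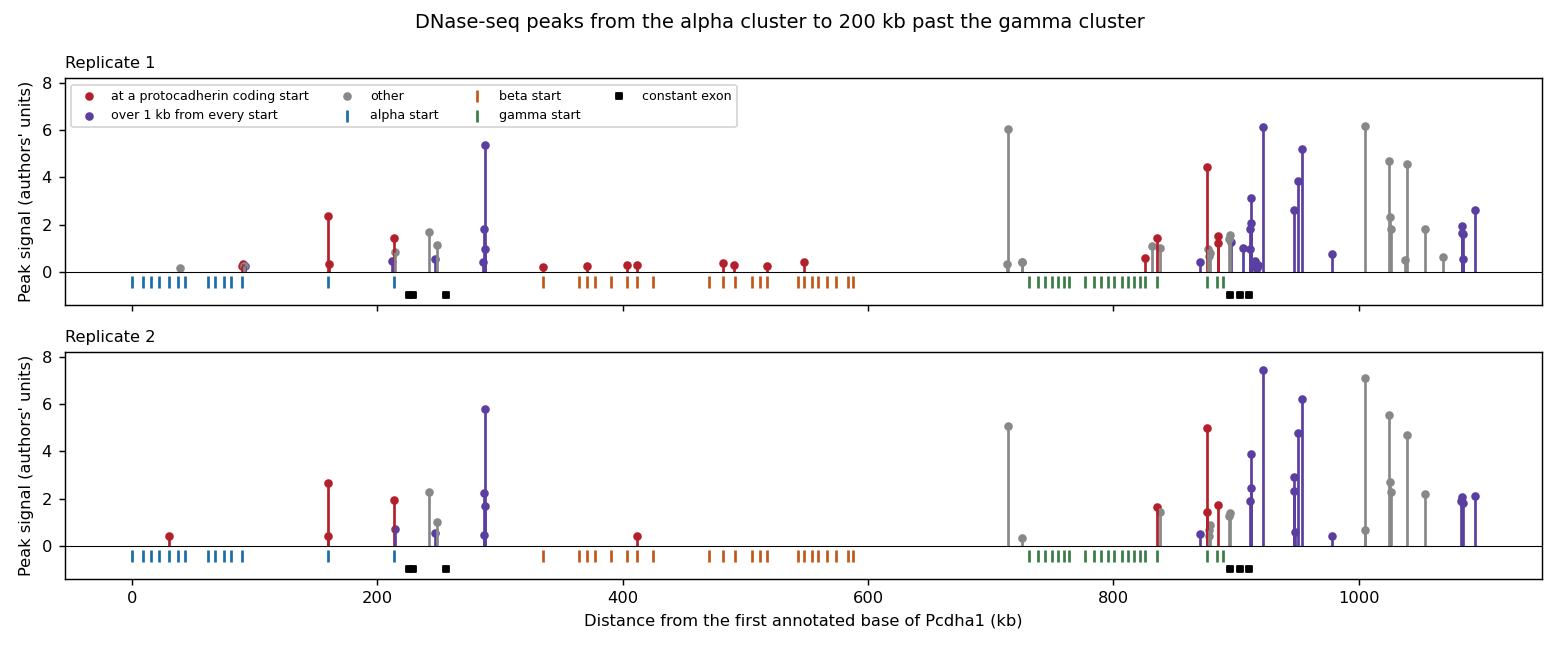
Signal of every peak (vertical axis, authors' units) against distance from the first annotated base of Pcdha1 (horizontal axis, kb) in replicate 1 (top) and replicate 2 (bottom), with member starts as ticks and constant exons as black squares below; peaks at a member start are red, those over 1 kb from every start purple and the rest grey. The beta array shows only low red stems in replicate 1 and 1 in replicate 2, and the highest purple stems stand past the alpha and the gamma constant exons.

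Footprints followed the peaks. A footprint lay in the window of 13 members in replicate 1, against 64% of all protein-coding genes, and of 5 in replicate 2, against 60.1%. Counting only footprints inside a called peak gave the same 13 and 5, so the footprints are not evidence apart from the peaks. A listed cut rate was found at 17 and 7 members, against 65.8% and 63.1%. Of the 41 members without a peak in either library, 40 also lacked any listed rate in both. Over all protein-coding genes the share with a listed rate also lay close to that with a peak, 65% and 62.2% in replicates 1 and 2. The missing rates are therefore not particular to the members. In the beta windows of replicate 1, 7 of 8 footprints lay upstream of the start.

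Replicates 1 and 2 listed 7 and 4 footprints in the Pcdhac1 window and 10 and 6 in the Pcdhgc3 window, and several of replicate 1 had no counterpart in replicate 2. The examples that follow, chosen after the positions were seen, include those that lay at nearly the same bases in both. At Pcdhac1 a footprint ran from -77 to -50 bp in replicate 1, with a width of 28 bp, and from -78 to -50 bp in replicate 2, with a width of 29 bp. At Pcdhgc3 a footprint of 28 bp in replicate 1 covered -198 to -171 bp, and a footprint of 23 bp in replicate 2 covered -197 to -175 bp. Pcdhac2 had a footprint from 152 to 170 bp past the start in replicate 1 and from 152 to 172 bp in replicate 2. At Pcdhga11 the only footprint, in replicate 1, covered -54 to -32 bp.

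**Figure D4:**
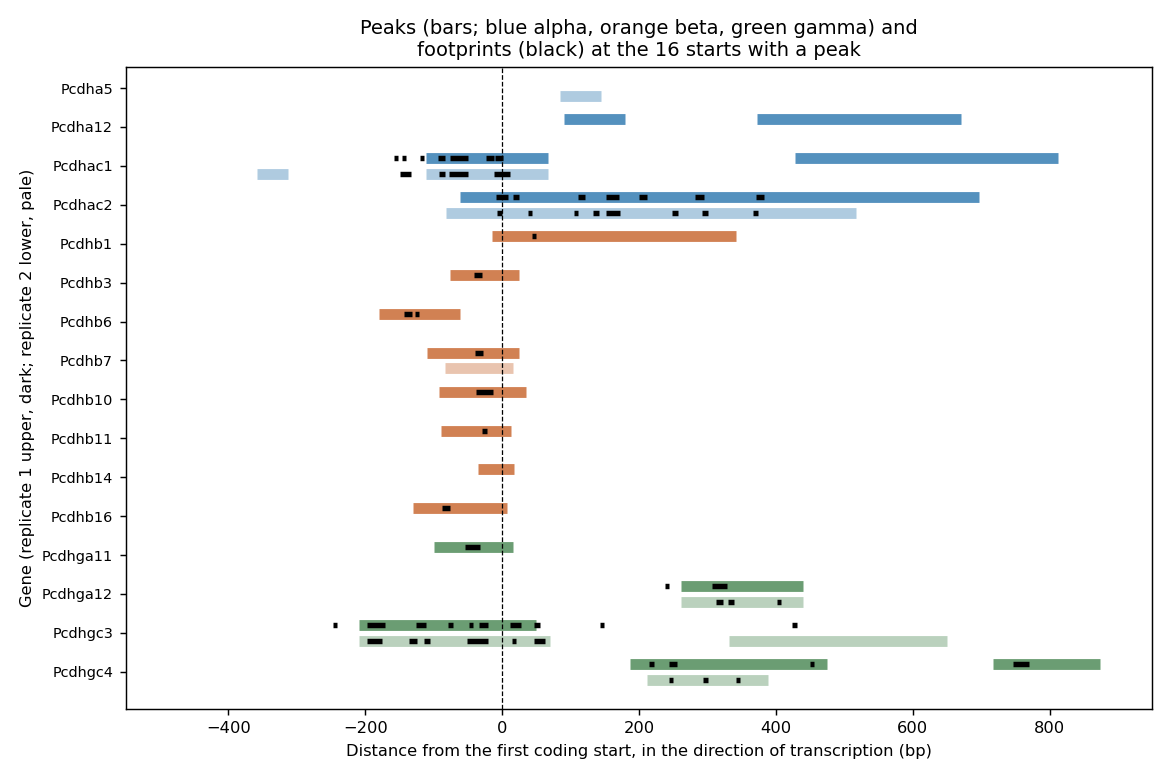
Peaks (coloured bars) and footprints (black) in base pairs from the first coding start, in the direction of transcription, at the 16 members with a peak, with replicate 1 above replicate 2 for each gene. The beta bars lie mostly left of the start, those of Pcdhga12 and Pcdhgc4 lie to its right, and the widest footprint of Pcdhac1 lines up in both replicates.

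Sequence like a CTCF site was searched in the 500 bp on each side of the first coding start. A 14-letter CTCF consensus with at most 2 mismatched letters, on either strand, was found in 16 of the 57 windows, against 37.7% of all protein-coding windows of the same length. AGNNGGCGC, which joins the 3' part of the CTCF core to the CGC of the protocadherin CGCT box and can overlap the consensus, was found in 10 of 57, against 21.1%. Neither was more frequent here than in promoters at large, but the windows were not matched for GC content. Its median was 44.9% in the members and 54.9% over all protein-coding genes. Matches past the window are not counted, such as those to both sequences in the replicate 1 peak of Pcdha12 from 37020521. With at most 1 letter mismatched, only the Pcdha5 window matched the CTCF consensus. A match is a description of letters and not a binding site, and a window without a match says only that these letters are not in it.

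The strand of the matches was set against that in promoters at large. Of 18 CTCF consensus matches, 1 stretch at Pcdhga10 counted on both strands, 13 lay on the gene strand, and over all protein-coding genes 51.7% of matches did. For AGNNGGCGC, 5 of 11 matches lay on the gene strand, against 54% over all protein-coding genes, and 11 matches are too few to show a direction. Within 150 bp upstream of the start, a window chosen after the positions were seen, all 7 protocadherin matches lay on the gene strand, against 58.6% of 2453 matches over all protein-coding genes. These 7 were in Pcdha3, Pcdha9, Pcdhac1, Pcdhb10, Pcdhb11, Pcdhb12 and Pcdhb18, at -31 to -113 bp, and paralogous promoters share ancestry, so they are not 7 independent cases.

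A footprint touched a CTCF consensus match at 4 members in replicate 1 and at 2 in replicate 2. Of the 18 matches 5 and 2 were touched, against 29.9% and 23.7% of the matches over all protein-coding genes. The members thus stood at or below the general share. Both shares include windows without a peak, which were more common among the members. Matches in open promoters alone were not compared. At Pcdhac1 the footprint described above covered both the consensus match, centred at -66 bp, and the overlapping AGNNGGCGC match, centred at -63 bp, in both libraries. Both matches lie on the gene strand. Pcdhb10 had a footprint of 25 bp over a match centred at -31 bp in replicate 1, and Pcdhga12 had a footprint within a match centred 241 bp past the start in replicate 1. At Pcdhac2 a match centred 30 bp past the start was touched at its edge only, and another, centred 121 bp past the start, was touched in replicate 1 only. The footprint shared by both libraries at Pcdhac2 lay over an AGNNGGCGC match on the opposite strand, centred 154 bp past the start. Pcdhb16 had a footprint over an AGNNGGCGC match centred at -78 bp in replicate 1.

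Similar paralogous sequence could hide reads that fit more than 1 place. The share of 31-base words of each promoter window that occur once in the reference genome was 71.0% to 90.1% in the alternate alpha genes (median 77.5%), had a median of 80.1% in the gamma B genes, and a median of 100% in the beta genes with a lowest value of 83.9%. It was 93.5% to 100% in the gamma A genes and 100% in all 5 C-type genes, against a median of 100% over all protein-coding genes. Of the 41 members without a peak, 11 had only words found once and 22 had at least 95%, whereas 10 were below 80%. Its part in the missing peaks was not tested, nor was that of mapping reads of the CAST chromosome to mm10. Promoter windows of the members had a median GC content of 44.9%, against 54.9% over all protein-coding genes, while the observed to expected CpG ratio was 0.564, against 0.561. By cluster the CpG ratio was 0.684 in alpha, 0.378 in beta and 0.594 in gamma.

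The constant exons of the alpha cluster were closed and those of the gamma cluster partly open. None of the 3 alpha constant exons had a peak or a footprint in either library: exon 1 from 37156155 to 37156213, exon 2 from 37159265 to 37159353 and exon 3 from 37184946 to 37187657. In the gamma cluster, constant exon 1, from 37825021 to 37825079, had a peak of 1.55 and 1.40 in replicates 1 and 2. Its centre lay 325 and 322 bp from an annotated start of Gm38182, so it cannot be given to the exon alone. Constant exon 3, from 37839903 to 37841873, which ends the shared message, had 1.82 and 1.88. These peaks began at 37841361 and 37841417, towards the end of the exon. Constant exon 2, from 37833265 to 37833353, had none in either.

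The intron between alpha constant exons 2 and 3 held 3 peaks shared by both libraries. The strongest, from 37172301 to 37172480, had 1.70 in replicate 1 and 2.30 in replicate 2 with its centre 173 bp from where the noncoding Gm38097 begins. Another, from 37178321, had 1.11 and 1.01 and lay at the start of the noncoding gene Gm10544. The third, from 37176862 in replicate 1, had 0.547 and 0.553 and was over 1 kb from every annotated start. An enhancer of the alpha cluster is known in this intron, but which of these peaks it corresponds to was not tested.

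Distal sites, with a centre over 1 kb from every annotated start, stood past the constant exons of both clusters. Between the alpha and beta clusters 4 such sites lay within 1.8 kb, all present in both libraries, starting 29.0 kb to 30.6 kb past the last alpha exon. The strongest, from 37218221 to 37218460, had signals of 5.38 and 5.80 in replicates 1 and 2, at percentiles 96.7 and 95.1 of all peaks. This was higher than the promoter of every clustered protocadherin in the same library. The other 3 had 1.82 and 2.22 (from 37217181), 0.984 and 1.69 (from 37217721), and 0.417 and 0.474 (from 37216661). The known alpha enhancer HS5-1 lies downstream of the alpha constant exons, but the identity of these sites with it was not tested.

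CTCF consensus matches were found at 2 of the 4 alpha sites, each with 1 letter mismatched and on the minus strand, opposite to that of the genes. At the strongest site a 41 bp footprint, from 37218428 to 37218468, was listed at the same bases in both libraries and covered the match. At the site from 37217181, footprints of 24 bp in replicate 1 and 25 bp in replicate 2 overlapped the match. This match, from 37217466, lay past the end of the replicate 1 peak at 37217420 and within the replicate 2 peak. Over all peaks of the libraries, 27.3% in replicate 1 and 29.1% in replicate 2 held a match. These are shares of peaks of 1 library, whereas the sites are merged over both.

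Past the gamma cluster, 17 distal sites were found in the 200 kb after the last exon. Of these 10 were in both libraries, 6 in replicate 1 only with signals of 0.156 to 0.552, and 1 in replicate 2 only. The strongest, from 37852161 to 37852400, lay 10.3 kb past the last exon and had 6.14 in replicate 1 and 7.48 in replicate 2. It was followed by the site from 37883561 with 5.21 and 6.23, that from 37880221 with 3.87 and 4.77, that from 37842061 with 3.11 and 3.91, and that from 37877181 with 2.60 and 2.91. The site from 37842061 started 188 bp past the end of constant exon 3, and the other 4 lie in the body of Diaph1, a formin gene on the minus strand, so a link to the protocadherins cannot be read from their position.

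A CTCF consensus match was found in 8 of the 17 gamma sites. In the region as a whole it was found in 18 of 71 peaks of replicate 1 and 14 of 47 of replicate 2, near the shares over all peaks given above. The gamma sites held 13 matches, 9 on the minus strand and 4 on the plus strand. A footprint touched 11 of them in replicate 1 and 8 in replicate 2. An overlap of 1 bp was enough, and the match from 37842742 to 37842755 met a footprint that began at 37842755. The share of footprinted matches over all peaks was not computed, so these counts have no general share beside them. The site from 37852161 held 2 matches, both on the minus strand, under footprints of 29 bp each in replicate 1 and 28 bp each in replicate 2. The site from 37883561 held a plus-strand match and a minus-strand match, the second without any mismatched letter, and both were footprinted in both libraries. The match at the site from 37877181, on the minus strand, was footprinted in both. No match was found at the sites from 37880221 and 37842061.

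**Figure D5:**
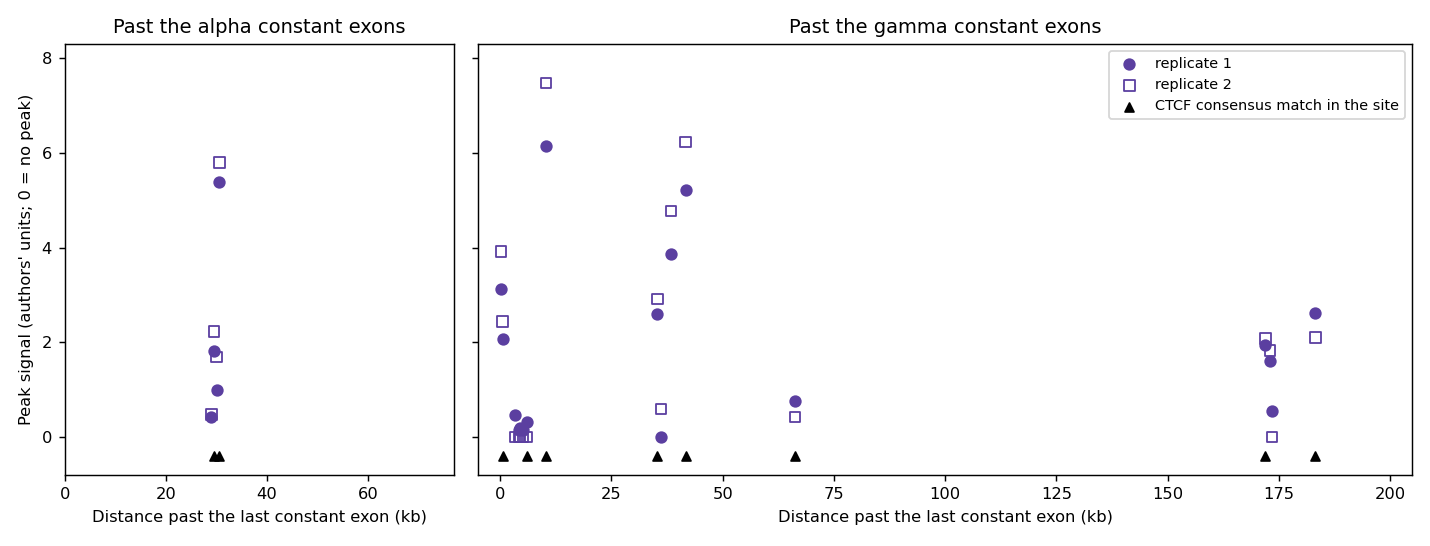
Signal (vertical axis, authors' units, 0 where no peak was listed) of distal sites against distance past the last constant exon (kb) for the alpha cluster (left) and the gamma cluster (right), with filled circles for replicate 1, open squares for replicate 2 and triangles for sites with a CTCF consensus match. The 4 alpha sites stand together at 29.0 to 30.6 kb, and the highest gamma site, at 10.3 kb, has 6.14 and 7.48.

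Over the whole 1112 kb from the first alpha gene to 200 kb past the gamma cluster, 71 peaks in replicate 1 and 47 in replicate 2 gave 6.39 and 4.23 peaks per 100 kb, against 3.84 and 3.00 genome-wide. The beta array held 3.08 and 0.385 per 100 kb and the 200 kb past the gamma cluster 12.5 and 10.0. This flank also holds promoters of other genes, such as Diaph1 and Hdac3. Up to the end of the last member there were 46 and 27 peaks. Of the peaks of the region, 56.3% in replicate 1 and 87.2% in replicate 2 were shared with the other library, against 64.8% and 82.9% of all peaks. Up to the end of the last member the shares were 50% and 85.2%. Genes of other kinds that lie among or beside the arrays ranged from no peak to strong promoters, and those given here were chosen after their values were seen. Taf7, a subunit gene of a general transcription factor between the beta and gamma clusters, had 6.04 and 5.10, and Diaph1 had 6.18 and 7.10. Slc25a2, next to Taf7, had no peak.

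The labelled tissue was checked against marker promoters. In replicates 1 and 2, peaks lay at 4 and 3 of 4 excitatory neuron markers, at 3 and 3 of 3 inhibitory neuron markers, at 3 and 2 of 3 astrocyte markers, at 2 and 2 of 3 oligodendrocyte lineage markers and at 1 and 1 of 2 microglia markers. None of 2 liver and 2 skeletal muscle markers had a peak. Over all protein-coding genes 65% and 62.2% of promoters had a peak in replicates 1 and 2. Several of the marker counts lie near that share, and lists this short cannot establish which cell types were present. The share of each cell type in the open promoters of the protocadherins was not tested.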

How the data were processed

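Per the labels and the text files deposited with the libraries, peaks, footprints and cut-rate tables were derived by the authors from filtered alignments on assembly mm10, per library. The aligner, the callers and their versions are not stated in the labels, headers or text files. The authors' deposited peak signal has no stated scaling and was used to describe and rank peaks. The deposited cut-rate table gives a false discovery rate (a p-value type of measure) of at most 0.05, and the footprint lists carry the p-value type value 0.01 in every row. No read counts were analysed here, so the depth is unknown.

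The longer of the 2 peak lists of each library was used. Overlap meant at least 1 bp. Distal meant a centre over 1000 bp from every annotated start. A constant exon was one shared by at least 3 members. Sequence came from GRCm38.p6. Python 3.11.15, numpy 2.4.6 and pandas 2.3.3 were used. The lookup was tested on simulated data, with 0 of 500 queries differing from a direct search. With 1 group there was no test. Alternatives were other windows, starts, lists and thresholds, and leaving out each library.

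The members and lists were chosen with earlier results of these data known. Named were the 3 highest and 3 lowest members of each cluster (the lowest were ties at 0 and are counted, not listed), the C-type genes and Pcdhb1, members with a peak in 1 library only, the constant exons, the 5 strongest distal sites per flank, and the 2 highest and 1 lowest of the comparison lists. Other names were chosen after their values were seen, including those that bound a stretch or carry a motif.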

Additional observations from a re-analysis of the deposited data

How the results depend on the processing

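Counts of open promoters depended on the peak list. Replicate 1 gave 15 of 57 in the main count, and 4 with the shorter list, 5 with the strongest 50% of peaks and 8 with as many peaks as replicate 2. Replicate 2 gave 7, and 4 with the shorter list. Promoters open in at least 1 library numbered 16, and 4, 5 and 10 under the same 3 choices, or 7 without replicate 1 and 15 without replicate 2. No beta promoter was left with the shorter list or the strongest 50%. Distal peaks past the gamma cluster in replicate 1 numbered 17, and 11 with the strongest 50%. Merged sites there numbered 17, and 11 to 16 when a library was left out, while those past the alpha cluster stayed at 4. Gamma constant exons with a peak in replicate 2 numbered 2, and 0 with the shorter list, and leaving out a library gave 2 gamma and 0 alpha exons. Promoters with a footprint in at least 1 library numbered 13, and 5 to 13 when a library was left out. A CTCF match was found at 16 members, and at 1 with at most 1 letter mismatched. Footprinted matches at 4 and 2 members in replicates 1 and 2 fell to 0 in both under that limit, and replicate 2 gave 1 when the footprint had to cover 0.5 of the match. In at least 1 library there were 4, and 2 to 4 when a library was left out. Fewer peaks or letters enter under the stricter choices, and the other causes were not tested. Of 186 alternatives to a count, 145 stayed within 1.5 times the main count. This tally does not measure stability. It counts members both together and by cluster, and includes counts such as the alpha constant exons, which were 0 under every choice. The median promoter signals were 0 under all 48 of theirs, which says nothing about stability. No paired analysis was possible because both libraries belong to 1 group. The depth is unknown, so its part in the weak beta peaks was not tested.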
